A study of Mus musculus with 35 samples.

Results

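The AP-1 transcription factor family was followed through hippocampal RNA of an epilepsy model as 9 genes: the Fos genes Fos, Fosb, Fosl1 and Fosl2, the Jun genes Jun, Junb and Jund, and the Batf genes Batf and Batf3. They were chosen by symbol as the AP-1 Fos and Jun family, and all 9 were among the 32544 gene symbols of the count tables. Hippocampi came from adult male C57BL/6JOlaHsd mice given an intra-amygdala injection of kainic acid (IAKA) or of PBS, and were taken after 24 hours (acute) or 2 weeks (chronic). Kainic acid, an agonist of glutamate receptors, triggers status epilepticus, after which lorazepam was given, and IAKA mice have spontaneous seizures by the later time. RNA was pulled down with an antibody against N6-methyladenosine (m6A), a methyl mark on adenosines of mRNA, and total RNA of most of these mice was also sequenced as input. The m6A libraries held 5 IAKA and 3 PBS mice at 24 hours and 6 IAKA and 5 PBS mice at 2 weeks. The input libraries with at least 100000 counts held 3 IAKA mice and 1 PBS mouse at 24 hours and 6 IAKA and 3 PBS mice at 2 weeks.

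AP-1 is a dimer of basic leucine zipper proteins. Jun proteins pair with each other or with Fos proteins, while Fos proteins need a Jun partner to bind DNA, and Batf proteins pair with Jun and lack the activation domain of Fos. Fos, Fosb and Junb are immediate early genes of the hippocampus: neuronal firing switches on their promoters within minutes through calcium, cAMP and MAP kinase signals, before any new protein is made. Fosb also gives rise to the stable truncated protein deltaFosB, which builds up in dentate granule cells after repeated seizures.

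Promoter windows of Fos, Fosb, Junb and Jun are shown because the cAMP response element is a known activity-responsive element of immediate early genes. The letters come from RefSeq on GRCm38.p6, the build named mm10 in the submitters' processing notes, and 8 of the 9 members had a promoter entry. The first 5 bases of that element, TGACG, were searched on both strands of the 250 bases before each gene start, and each window of 30 bases below runs 5′ to 3′ on the strand of the gene with the match in capitals.

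Fos, 66 bases before the start, chr12:85473812-85473841, plus strand: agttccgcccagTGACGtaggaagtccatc

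Fosb, 60 bases before the start, chr7:19310088-19310117, minus strand: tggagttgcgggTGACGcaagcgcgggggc

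Junb, 106 bases before the start, chr8:84978837-84978866, minus strand: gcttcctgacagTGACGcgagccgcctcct

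Jun, 45 bases before the start, chr4:95052249-95052278, minus strand, with the variant TGACATCA in capitals: aagcctcggggTGACATCAtgggctatttt

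TGACG was found in 4 of the 8 promoters, those of Fos, Fosb, Junb and Batf, and in 17.8% of 32851 promoters of the same length. Fos held a further TGACG starting 129 bases before its start. The full element TGACGTCA was in none of the 8 and in 1.55% of all promoters, and the AP-1 site TGACTCA was in none of the 8 and in 4.46% of all. TGACATCA, found in Jun alone among the 8, was in 2.93% of all. The TATA box TATAAA, read on the gene's strand, began 33 bases before the start of Fos and was in 7.59% of all promoters. The Fosb window, on the minus strand, lies inside the annotated gene, chr7:19302696-19310118. Its promoter entry thus counts from a start inside the gene. These are matches of letters only.

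Total counts ran from 1652933 to 34564536 in the m6A libraries and from 3057578 to 12694434 in the 13 input libraries used. Levels are given as CPM, counts per 1000000 counts of the library after TMM scaling, and a library with no count could still hold up to 3 counts, between 0.0868 and 1.81 CPM in the m6A libraries. Both libraries of the 24 hour IAKA mouse 8 stood apart, with 28496 and 28574 genes detected and Gm10800 as the most counted gene. The only PBS input library used at 24 hours, that of mouse 1, had the most counts of the input libraries, 12694434. It had 25529 genes detected, and the other input libraries used, apart from mouse 8, had 17896 to 20865. The m6A libraries of the 24 hour IAKA mice 67 and 98 held 1979606 and 1652933 counts. Column names of m6A libraries start with 3, 4 or 5, a prefix that no label explains and that divides the groups unevenly. Prefix 3 held IAKA mice only, and at 24 hours prefix 5 held PBS mouse 1 only. Outside prefix 4, treatment and prefix therefore cannot be told apart at 24 hours. The 8 markers of hippocampal principal neurons all had counts in every group, with summed levels of 777 to 3920 CPM.

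Fos rose 9.11-fold in m6A-bound RNA 24 hours after IAKA. It was the only member past the threshold in any of the 4 comparisons of IAKA with PBS. In m6A libraries of PBS mice, Fos stood at 1.03, 2.63 and 3.92 CPM. In those of IAKA mice it stood at 10.1, 17.9, 20.2, 29.4 and 37.4 CPM. Every IAKA library lay above every PBS library, and the lowest IAKA value, that of mouse 98, rested on 17 counts. The log2 fold change was 3.19 (SE 0.56) with an adjusted P of 0.0286 in the edgeR fit across 17440 genes, of which 0.172% were called higher. Members called higher were thus 1 of 9, beside 30 genes in all. In bulk tissue, fewer cells of a type and less RNA per cell cannot be told apart, and within an m6A library more transcript cannot be told apart from more methylation of it.

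**Figure D1:**
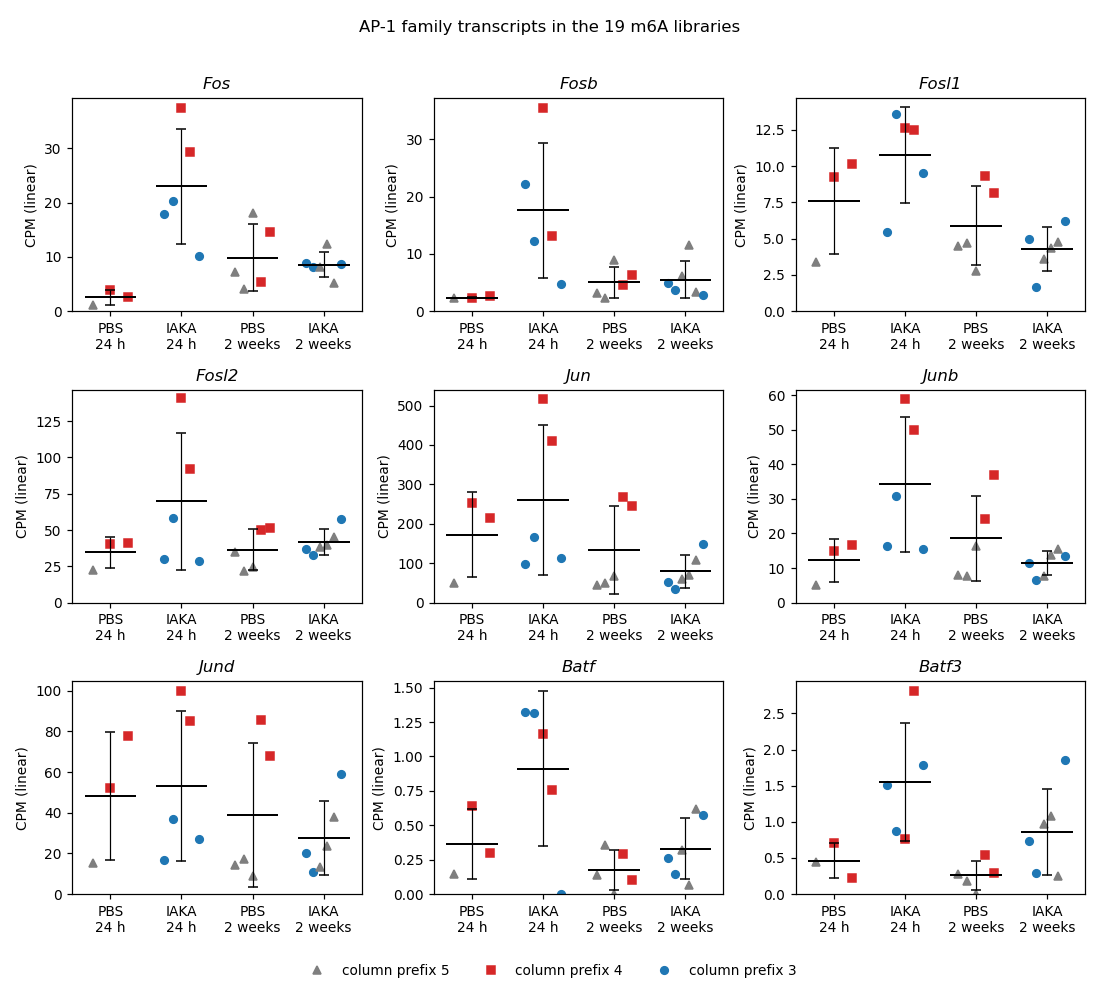
Level of each AP-1 family member (CPM, linear axis from 0) in the 19 m6A libraries, by treatment and time; symbols give the column prefix, horizontal lines the group means and bars 1 SD. Fos ran from 10.1 to 37.4 CPM in IAKA mice at 24 hours against 1.03 to 3.92 CPM in PBS mice, and Jun and Jund were highest in libraries of prefix 4 in both treatments.

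Its close relative Fosb had nearly the same profile and narrowly missed the threshold. PBS mice held 2.26, 2.27 and 2.55 CPM of Fosb, whose SD was 0.164. IAKA mice held 4.75, 12.3, 13.1, 22.2 and 35.5 CPM. The groups did not overlap, and the IAKA values spread widely while the PBS values were nearly equal. The estimate was 7.66-fold (log2 2.94, SE 0.60, adjusted P = 0.0504, edgeR).

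Junb, an immediate early gene like Fos, was estimated 2.85-fold higher at 24 hours and was not called. Its PBS libraries held 4.98, 14.9 and 16.7 CPM. Its IAKA libraries held 15.4, 16.3, 30.8, 49.8 and 58.9 CPM. The groups overlapped, since the lowest IAKA libraries, those of mice 98 and 8, fell between PBS values (log2 1.51, SE 0.56, unadjusted p = 0.0137, adjusted P = 0.480, edgeR). Fosl2, which encodes Fra-2, stood at 22.3, 40.3 and 41.3 CPM in PBS mice and at 28.5, 29.97, 58.4, 91.96 and 141 CPM in IAKA mice (log2 1.03, SE 0.45, adjusted P = 0.653, edgeR). Only the 3 highest IAKA libraries were above the PBS range.

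For the other Jun genes and Fosl1 the estimate was within 2 SE of 0. Jun, the canonical Jun partner, stood at 49.2, 215 and 254 CPM in PBS mice and at 97.7, 113, 167, 411 and 515 CPM in IAKA mice (log2 0.60, SE 0.70). Jund, which is expressed constitutively in many tissues, had a log2 fold change of 0.16 (SE 0.73). Fosl1, which encodes Fra-1, had 0.50 (SE 0.45). Their groups overlapped, and adjusted P values of these 3 were 0.864 to 0.982 (edgeR).

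Batf and Batf3, factors known from lymphocytes and dendritic cells, were near the counting limit and passed the filter on low counts largely through IAKA libraries. Batf ran from 0 to 1.32 CPM in IAKA mice and from 0.147 to 0.642 CPM in PBS mice. Batf3 ran from 0.768 to 2.81 CPM against 0.225 to 0.709 CPM without overlap (log2 1.72, SE 0.75, adjusted P = 0.660, edgeR). Across all genes tested, 2.68% had every IAKA library above every PBS library and 1.73% every one below. Among the members Fos and Fosb were wholly above and none was wholly below, and Batf3, also above, is not counted because of how it passed the filter. The 8 leukocyte markers summed to 17.6 to 73.2 CPM in these IAKA libraries and 11.2 to 27.4 CPM in the PBS libraries. Of the 6 markers tested, 5 had an estimate above 0 and none was called, and their part in the Batf values was not tested.

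The call of Fos at 24 hours depended on single libraries. With 1 library left out at a time, its log2 fold change stayed between 2.82 and 3.62, but its adjusted P ran from 0.0169 to 0.231 and was past the threshold in 3 of 8 cases. The call was lost without PBS mouse 71 (0.137), 73 (0.231) or 1 (0.177) and without IAKA mouse 97 (0.0797) or 79 (0.0748).

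At 2 weeks no member was called in m6A-bound RNA, where 0.00573% of genes, the single gene Acvr1c, named here after its value was seen, were called higher and none lower. Fos ran from 5.23 to 12.4 CPM with a median of 8.42 in 6 IAKA mice, against 3.97, 5.43, 7.14, 14.6 and 18.0 CPM in PBS mice. The IAKA values lay inside the PBS range (log2 -0.18, SE 0.40, adjusted P = 0.963, edgeR). The 24 hour IAKA libraries, at 10.1 to 37.4 CPM, overlapped the 2 week PBS libraries, and all 3 PBS libraries of 24 hours were below all 5 of 2 weeks.

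Fosb at 2 weeks stood at 2.20, 3.19, 4.56, 6.26 and 8.92 CPM in PBS mice and ran from 2.88 to 11.6 CPM with a median of 4.33 in IAKA mice. The groups overlapped (log2 0.13, SE 0.44). Fosl2 had a log2 fold change of 0.19 (SE 0.36) and Fosl1 of -0.48 (SE 0.37). Junb, Jun and Jund were estimated at -0.70 (SE 0.44), -0.77 (SE 0.56) and -0.50 (SE 0.60). No member had groups that did not overlap in either direction, against 0.516% of genes higher and 0.166% lower in every IAKA library. Adjusted P values of the 9 members were 0.949 or above (edgeR).

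**Figure D2:**
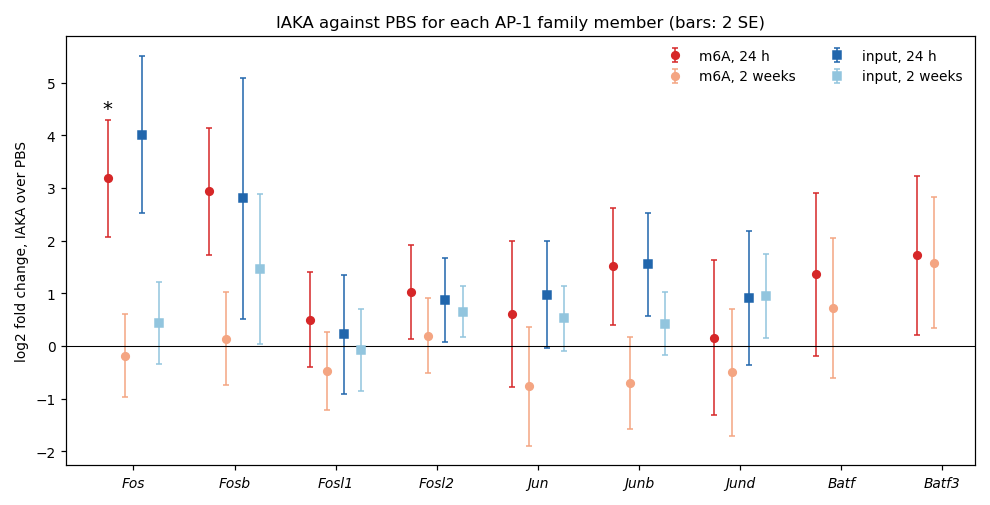
log2 fold change of IAKA over PBS for each member (bars: 2 SE) in m6A and input libraries at 24 hours and 2 weeks; an asterisk marks an adjusted P under 0.05 and Batf and Batf3 were not tested in input. Fos at 24 hours was 3.19 in m6A libraries, the only value marked, and 4.01 in input libraries.

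The change of the IAKA effect from 24 hours to 2 weeks was tested as an interaction in the m6A libraries. The estimate for Fos was -3.37 on the log2 scale (SE 0.66, unadjusted p = 5.58e-05), which ranked number 3 by p among 17440 genes and had an adjusted P of 0.325. Fosb followed at -2.80 (SE 0.72) and Junb at -2.21 (SE 0.71), both with an adjusted P of 1.00 (edgeR). No member passed, and 0.00573% of genes, the single gene Tm4sf1, named here after its value was seen, were called. A difference between the time points was thus not shown for any member by this test.

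In input RNA, which carries no selection for m6A, the same genes headed the family at 24 hours, but 1 PBS library cannot show its own spread and was taken to vary like the other groups. Fos stood at 1.17 CPM in that library and at 9.88, 22.8 and 24.3 CPM in IAKA mice (16.2-fold, log2 4.01, SE 0.75, unadjusted p = 0.000105, adjusted P = 0.180, edgeR). Fosb stood at 1.79 CPM against 3.90, 8.61 and 24.3 CPM (log2 2.80, SE 1.15). Junb stood at 5.08 CPM against 12.8, 13.3 and 18.7 CPM (log2 1.55, SE 0.49). All IAKA libraries lay above the PBS library for Fos, Fosb, Fosl2, Jun and Junb, 5 of the 7 members tested, where 21.2% of all genes did. The log2 fold changes of Jun, Jund, Fosl2 and Fosl1 were 0.97 (SE 0.51), 0.91 (SE 0.64), 0.88 (SE 0.40) and 0.22 (SE 0.57).

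No member, and no gene of 17644, was called in input at 24 hours (0%), while 1628 genes had an unadjusted p under 0.05 and DESeq2 called 201, with Fos among them at an adjusted P of 7.01e-05. Without IAKA mouse 8, whose libraries stood apart, Fos was estimated at 13.9-fold and Fosb fell from 6.97-fold to 3.53-fold. Batf and Batf3 had at most 9 counts in any input library and were not tested. The 3 input libraries left out held between 3171 and 34486 counts and among the members only 1 count of Jun and 2 of Jund.

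**Figure D3:**
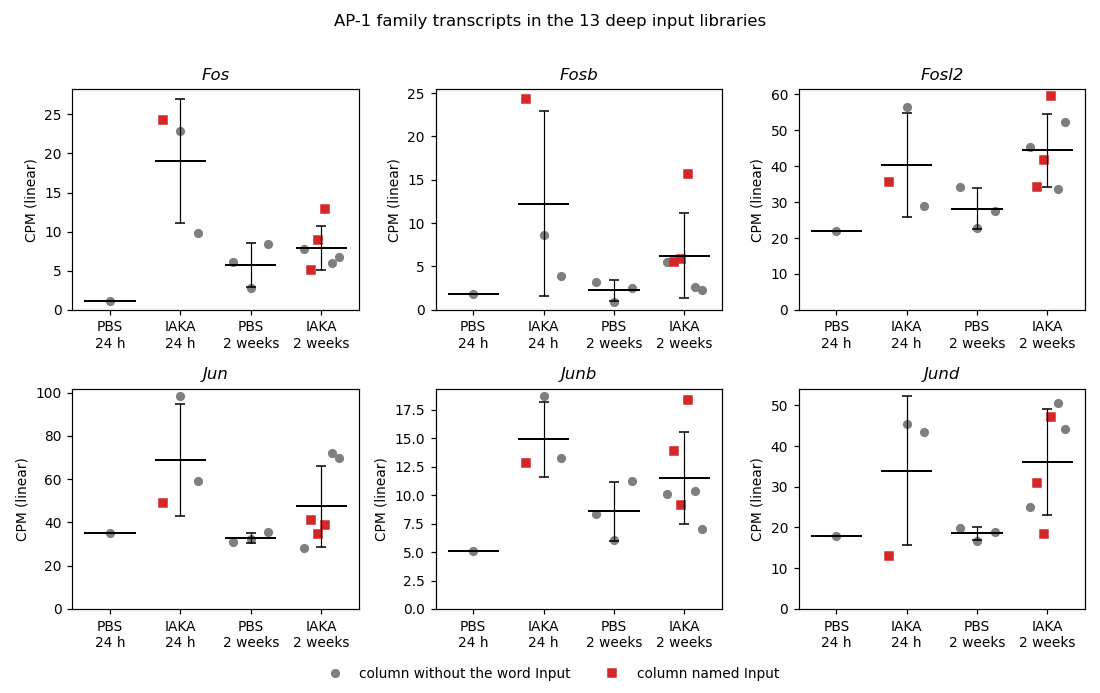
Level of 6 AP-1 family members (CPM, linear axis from 0) in the 13 input libraries with at least 100000 counts; symbols give the kind of column name, horizontal lines the group means and bars 1 SD, and the 24 hour PBS group is 1 library. Fos ran from 9.88 to 24.3 CPM in IAKA mice at 24 hours against 1.17 CPM in the PBS library and 2.74 to 8.38 CPM in PBS mice at 2 weeks.

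At 2 weeks no member was called in input (0%), and neither was any other gene, with 1439 genes at an unadjusted p under 0.05 and 30 called by DESeq2. Fos stood at 2.74, 6.11 and 8.38 CPM in PBS mice and ran from 5.13 to 12.8 CPM with a median of 7.27 in IAKA mice. The ranges overlapped (log2 0.43, SE 0.39). Fosb was estimated at 1.47 (SE 0.71) with one IAKA library, that of mouse 9, at 15.7 CPM and the others at 2.24 to 5.92 CPM. Jund ran from 18.5 to 50.5 CPM in IAKA mice against 16.7, 18.98 and 19.9 CPM in PBS mice, a difference of 0.95 on the log2 scale (SE 0.40; adjusted P = 0.589, edgeR). Fosl2 had 0.65 (SE 0.24, adjusted P = 0.567). Above the PBS range were 5 of the 6 IAKA libraries for Jund and 4 of the 6 for Fosl2. None of the 7 members tested had groups fully apart, against 3.05% of genes with every IAKA library above and 3.41% with every one below. Batf3, not tested, ran from 0.481 to 1.28 CPM in IAKA mice and from 0 to 0.304 CPM in PBS mice on a few counts. In the interaction test of input, Fos had -3.58 (SE 0.81, adjusted P = 1.00, edgeR) and no member was called (0%). All 7 members had input values from the same 3 IAKA mice and 1 PBS mouse at 24 hours, which also gave m6A libraries, so the assays are not independent.

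Levels of the Jun genes in m6A-bound RNA differed with the column prefix of the library. Jun ran from 215 to 515 CPM in the 6 libraries of prefix 4, which hold IAKA and PBS mice, from 35.03 to 167 CPM in the 6 of prefix 3 and from 43.5 to 109 CPM in the 7 of prefix 5. Each prefix 4 library was above every other library. Jund ran from 52.1 to 99.9 CPM in prefix 4 and from 8.77 to 37.9 CPM in prefix 5, again without overlap. With treatment and time in the model, prefix 4 exceeded prefix 5 for Jund by 4.85-fold (adjusted P = 0.000964), Jun by 4.44-fold (0.000543), Junb by 2.76-fold (0.00184), Fosl2 by 2.13-fold (0.00304) and Fosl1 by 2.07-fold (0.0231, edgeR).

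Fos and Fosb differed 1.61-fold (adjusted P = 0.230) and 1.08-fold (adjusted P = 0.879, edgeR) between prefixes 4 and 5, and neither they nor the Batf genes were called. Members called higher were thus 5 of 9, where 11.5% of all genes were, and 0 genes (0%) were called between prefixes 3 and 5. What the prefix stands for is not given.

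**Figure D4:**
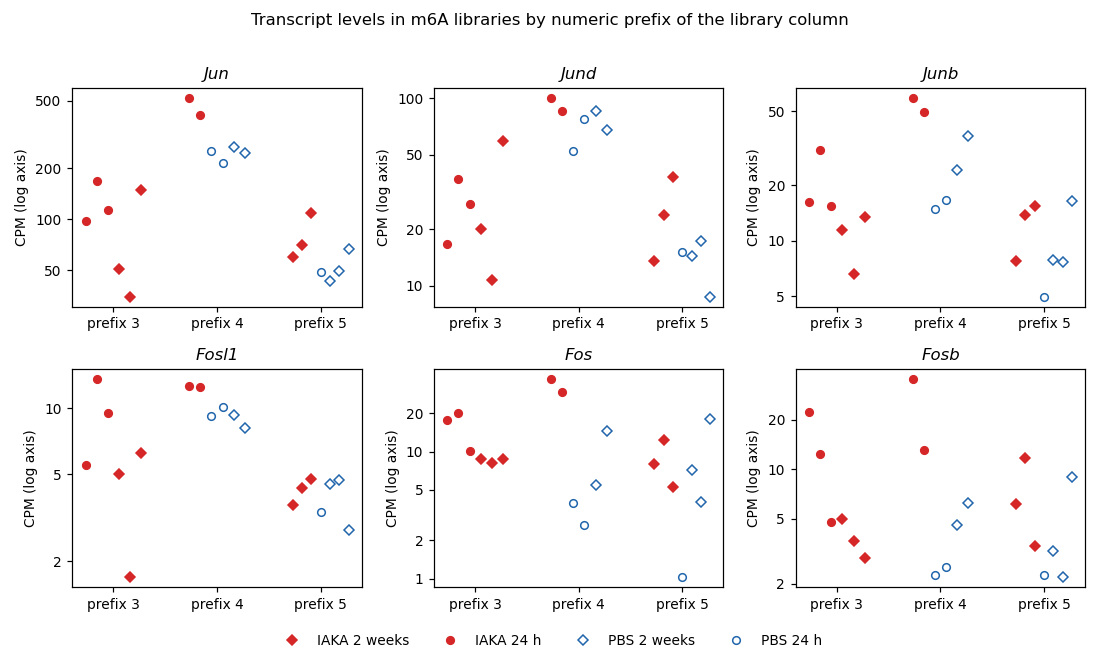
Level of 6 members (CPM, log axis) in the 19 m6A libraries by the prefix of the library's column, with filled symbols for IAKA, open symbols for PBS, circles for 24 hours and diamonds for 2 weeks. The 6 libraries of prefix 4 held 215 CPM of Jun or more and all other libraries 167 CPM or less, while Fos was spread within each prefix.

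Treatment was therefore also compared with the prefix held fixed. At 24 hours, prefix 4 held IAKA mice 79 and 97 and PBS mice 71 and 73, so treatment could be compared inside it, in a test over 4 libraries chosen after the data were seen. There Fos was 9.92-fold higher (adjusted P = 0.00526), Junb 3.45-fold (0.00839), Fosl2 2.85-fold (0.0258) and Jun 1.97-fold (0.0416), and Fosb was 10.3-fold higher without a call (0.0544, edgeR). That is 4 of 9 members, all higher, where 1.47% of 16903 genes were called higher. With the prefix as a block over all libraries, Fos (10.99-fold, adjusted P = 0.00927), Fosb (10.4-fold, 0.0211) and Junb (3.84-fold, 0.0257, edgeR) were called, 3 of 9 members, where 0.356% of genes were called higher.

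At 2 weeks, prefix 4 held 2 PBS mice and no IAKA mouse. With the prefix as a block the estimates of Jun, Junb and Jund turned from below 0 to 0.47, 0.14 and 0.74, and inside prefix 5, with 3 mice of each treatment, to 0.60, 0.24 and 0.88. Fos turned from -0.18 to 0.15 with the block. None of these was called, so the negative 2 week estimates of the Jun genes have no settled direction.

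Set against input in the same mouse, Jun was the member most often higher in the m6A library. The ratio of its CPM in m6A to its CPM in input was above 1 in 12 of 13 mice, with a median of 1.72, and the exception was IAKA mouse 6 of 2 weeks at 0.849. The m6A library of mouse 6 had 27003 genes detected and 17.5% mitochondrial counts, the highest share of all libraries. Mouse 6 also had the lowest ratio of Fosb, Fosl1, Junb and Jund. Jund was above 1 in 3 of 13 mice with a median of 0.750, and Fos in 7 of 13 with a median of 1.02. Ratios of Fosb and Fosl1 spread from 0.665 to 3.48 and from 0.515 to 3.25. CPM was scaled apart in each assay, so a ratio of 1 is no absolute level of methylation. How often other genes had a ratio above 1 was not counted, so these ratios compare the members with each other only.

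The test of m6A over input in PBS mice at 2 weeks called 2.31% of 16141 genes (1.18% higher and 1.13% lower in m6A) and none of the 8 members tested. Jun was estimated 3.46-fold higher in m6A (log2 1.79, SE 0.58, adjusted P = 0.0982, edgeR), with the PBS mice 50 and 78 of prefix 4 in the m6A group alone. Over the 3 PBS mice with both libraries and mouse as a block it was 1.36-fold (log2 0.44, SE 0.22, adjusted P = 0.298, edgeR). The change of m6A over input with IAKA at 2 weeks was called for no gene (0%; 655 genes at an unadjusted p under 0.05 and 4 called by DESeq2). The estimates of the 8 members tested were below 0, from -1.46 for Jund to -0.41 for Fosl1, while 47% of all genes were above 0. Here too the PBS mice 50 and 78 of prefix 4 were in the m6A group alone. With mouse as a block Jun and Jund went to -0.03 and -0.07 and Fosl1 turned to 0.0931.

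**Figure D5:**
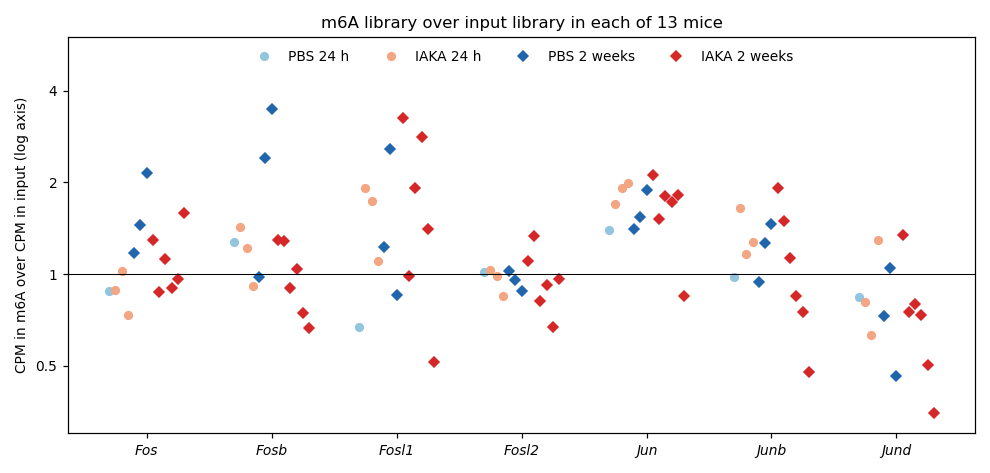
CPM in the m6A library over CPM in the input library of the same mouse (log axis) for 7 members and 13 mice, coloured by treatment and time; the line marks a ratio of 1. Jun lay above 1 in 12 mice with a median of 1.72 and Jund in 3 mice with a median of 0.750.

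Across the 19 m6A libraries, on log2 CPM, Pearson's r was 0.86 between Fos and Fosb, 0.92 between Jun and Jund and 0.89 between Jun and Junb. It was 0.70 between Fos and Junb, 0.66 between Fosb and Junb, 0.38 between Fos and Jun and 0.15 between Fosb and Jund. These are descriptions of libraries that share treatment, time and prefix. Among 17431 other genes, those most like Fos were Cyr61 (r = 0.85), a secreted matrix protein, Npas4 (0.83), a neuronal activity-dependent transcription factor, Iigp1 (0.82), an interferon-inducible GTPase, Trib1 (0.81), a pseudokinase, and Plaur (0.81), the urokinase receptor.

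Of 20 AP-1 partners and other basic leucine zipper genes, 19 were tested in m6A-bound RNA at 24 hours and none was called, with a median log2 fold change of 0.50 beside 0.09 over all genes. Atf3, a stress-induced partner of Jun, ran from 0.594 to 17.4 CPM in IAKA mice against 0.675 to 2.13 CPM in PBS mice (8.89-fold, log2 3.15, SE 0.83, adjusted P = 0.178, edgeR), and was at 12.8-fold in input (adjusted P = 0.396). The lowest IAKA value was below all PBS values but near the counting limit, which reached 1.81 CPM in the m6A library with the fewest counts. Its place against the PBS values is thus not settled. Jdp2, a repressor that pairs with Jun, had a log2 fold change of -0.35 (SE 0.43). At 2 weeks none of the 19 was called and the median was 0.08.

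Of 20 upstream MAP kinases and promoter factors, all were tested and none was called at 24 hours or at 2 weeks, with medians of -0.13 and -0.04. Of 18 textbook AP-1 target genes, 15 were tested in m6A-bound RNA, with a median of 1.27 over the 15 at 24 hours. At that time 3 rose, Cd44, Plaur and Ccl2, where 0.172% of all genes did. That number is not read against this share, because Plaur and Ccl2 had low counts in PBS mice. The list was also written with earlier results of these data known. Cd44, a cell surface receptor for hyaluronan, rose 6.38-fold (adjusted P = 0.0335), from 9.01 to 14.2 CPM in PBS mice to 32.0 to 107 CPM in IAKA mice. Plaur and Ccl2, a chemokine that draws monocytes, also rose with an adjusted P of 0.0335 (edgeR), but their PBS libraries held 1, 3 and 9 counts of Plaur and 1, 11 and 40 of Ccl2, so no fold is given. Without PBS mouse 71, 73 or 1, and in a fit of these 8 libraries alone, 1 gene in all was called, so at most 1 of the 3 targets kept its call there. Without IAKA mouse 97 or 79, 4 genes in all were called.

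The targets that rose were at low or middle levels in PBS mice: Plaur ran from 0.0750 to 0.304 CPM, and Ccl2 from 0.0750 to 1.35 CPM, against 2.37 to 3.52 and 5.34 to 20.2 CPM in IAKA mice. None of the 15 was called at 2 weeks, where the median was 0.21 and Cd44 was estimated at 1.39 (SE 0.39) with an adjusted P of 0.949 (edgeR). In input none of the 3 lists held a called gene at either time, as no gene was called there. At 24 hours Cd44, Ccl2 and Plaur had input log2 fold changes of 2.70 (SE 0.84), 4.44 (SE 1.18) and 2.04 (SE 1.201).

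Levels of cell type markers are set beside these values. In m6A libraries at 24 hours, summed markers of hippocampal principal neurons ran from 809 to 2315 CPM in IAKA mice and from 1781 to 3698 CPM in PBS mice, and 1 of the 8 had an estimate above 0. The 7 choroid plexus markers ran from 26.7 to 904 CPM against 43.8 to 597 CPM and all 7 had estimates above 0, while microglial markers ran from 162 to 276 CPM against 170 to 204 CPM. Inhibitory neuron, astrocyte, oligodendrocyte and thalamus sums overlapped between the groups too. The 5 endothelial markers did not: they ran from 360 to 455 CPM in IAKA mice and from 201 to 282 CPM in PBS mice. Sums of the 5 blood markers overlapped, at 6.46 to 34.5 CPM against 8.10 to 16.4 CPM. In input at 24 hours, 7 of 7 leukocyte markers tested, 5 of 5 blood and 5 of 5 endothelial markers had estimates above 0. Their median log2 fold changes were 1.93, 1.87 and 1.73, beside 0.27 over all genes, of which 65.9% were above 0. So had 7 of 7 choroid plexus (median 1.03), 5 of 6 microglial (0.82), 5 of 6 astrocyte (0.65) and 4 of 5 thalamus markers (0.73). Above 0 were 4 of 8 principal neuron, 1 of 6 oligodendrocyte and 0 of 6 inhibitory neuron markers. The comparison rests on 1 PBS library. Leukocyte and blood sums were above that library in every IAKA library, but endothelial sums ran from 434 to 1440 CPM against 770 CPM. At 2 weeks in input, 5 of 6 microglial markers had estimates above 0, with the highest median of the lists, 0.80. For 6 of 6 astrocyte and 7 of 8 principal neuron markers they were above 0 too, with medians of 0.64 and 0.67. The other lists also had medians above 0, from 0.03 for inhibitory neurons to 0.53 for blood. Of all genes 51.7% were above 0 there. No marker of any list was called, and their part in the member values was not tested.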

How the data were processed

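Per the labels, hippocampal RNA was extracted with Trizol, m6A was immunoprecipitated and stranded total RNA libraries were made. The authors deposited raw counts for each gene symbol, split over 4 lanes and not normalized. The submitters' processing notes name the build mm10. Which aligner and counter ran, and whether strand was used, is not given in the sources used here. Reads of overlapping genes could therefore be split. Lanes of 140 columns were summed to 35 libraries, and another 8 columns, of mice the labels list without an input library, were not used. The assay is named in the columns of 8 libraries. Among the others, columns with a numeric prefix were read as m6A. Columns with neither an assay name nor a prefix were read as input, because the same mouse also has a prefixed column. The only PBS input library used at the acute time is among these, so its assay is inferred. Libraries within a group differed beyond sampling noise. The labels name separate mice.

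Genes were tested with edgeR 4.0.16 in R 4.3.3 (filterByExpr by group, TMM, robust quasi-likelihood fit, Benjamini-Hochberg threshold of 0.05), with 1 fit per assay over 4 groups. The m6A over input comparisons used 20 libraries of 2 weeks. The SE is the absolute log2 fold change over the square root of F. Library sets, DESeq2 1.42.0, limma 3.58.1 (voom), other scalings, filters and each library left out were alternatives. The same mouse numbers in input and m6A pair the libraries by label; deviations from the group means correlated at 0.14 to 0.86 in IAKA mice and at -0.01 to 0.08 in 2 week PBS mice. Scripts were tested on simulated data. The members and lists were chosen with earlier results of these data known. Named genes were the 9 members, Atf3, Jdp2, up to 5 called genes per direction and list, and the 5 genes most correlated with Fos. Tables and plots used Python 3.11.15, pandas 2.3.3, numpy 2.4.6 and matplotlib 3.10.9. Bounds at 0 counts cover counting error only.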

Additional observations from a re-analysis of the deposited data

Results flagged for a closer look

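In the 6 input libraries of IAKA mice at 2 weeks, Fosb stood at 15.7 CPM in mouse 9, far from the nearest other library at 5.92 CPM, and the same mouse also had the highest m6A value of Fosb among IAKA mice of 2 weeks, at 11.6 CPM. It was the 1 sample set apart from its group in 36 groups of member values tested, and chance sets apart about 1 in 20. Without this library the log2 fold change of Fosb in input at 2 weeks was 0.95 in place of 1.47, and neither was called.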

How the results depend on the processing

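The direction of Fos, Fosb, Fosl2, Junb and Jun at 24 hours held in both assays under every alternative run. In m6A-bound RNA at 24 hours, 1 member and 31 genes became 2 and 202 with DESeq2, 4 and 1369 with voom, 3 and 65 with the prefix as a block, 4 and 356 within prefix 4, 2 and 66 without IAKA mice 67 and 98, and 0 and 1 in a fit of only these 8 libraries. They were 0 and 2 at an adjusted P under 0.01, 2 and 58 under 0.10, and 0 to 2 and 1 to 34 with 1 library left out. Without IAKA mouse 8 and PBS mouse 1 no member was called (Fos 7.298-fold, adjusted P = 0.190) and Jund was at -0.0866. Library total scaling, no filter and a mean of at least 10 counts each gave 2 members. At 2 weeks the 1 gene called became 13 (DESeq2), 0 (library totals, 2 groups only, within prefix 5, under 0.01), 2 (no filter, block, under 0.10), and 0 to 2 with 1 library left out. For the interaction DESeq2 called 5 genes, Fos among them as 1 member.

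In input at 24 hours, 0 genes became 201 with 1 member (DESeq2), 1076 with 2 (voom), 8 with 1 (all 16 libraries), 1914 with 3 (columns without the word Input, 3 libraries), 1 (library totals; under 0.10), 3 (no filter), 2 (column kind as a block) and 1 to 180 with 0 to 1 member with 1 library left out. At 2 weeks they became 30 (DESeq2), 112 (voom), 2 (no filter) and 0 to 1 with 1 left out, and 4 in the DESeq2 interaction. For m6A over input in PBS mice, 373 genes and 0 members became 900 and 1 (DESeq2), 1036 and 1 (library totals), 244 (no filter), 81 (under 0.01), 905 and 1 (under 0.10), and 53 to 647 and 0 to 1 with 1 left out. Its change with IAKA went from 0 to 4 genes with DESeq2.

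With mouse as a replicate block, m6A over input turned for Fosl2 (-0.31) and Jund (-0.73), its change with IAKA turned for Fosl1 (0.0931), and 265 and 1 genes were called. The block changed no member's call. At 2 weeks in m6A, Fos turned with voom (0.49) and the prefix block (0.15), as did Jun (0.47), Junb (0.14) and Jund (0.74) with the block, and Fosl1 (0.0719), Jun (0.60), Junb (0.24) and Jund (0.88) within prefix 5. In input, Fosl1 turned at 24 hours with library totals (-0.0794) and at 2 weeks with the block (0.10) and within 1 kind of column (0.11), and Fosl2 in the interaction with library totals (0.0401). With 1 library left out, estimates crossed 0 for Fos (-0.39 to 0.12), Fosb (-0.24 to 0.40) and Jund (-0.91 to 0.00653) at 2 weeks and Jund (-0.27 to 0.67) at 24 hours in m6A, Batf3 in its interaction (-0.59 to 0.38), Fosl1 in input at 2 weeks (-0.29 to 0.12), Fosl2 (-0.41 to 0.0946) and Jund (-0.35 to 0.33) in the input interaction, and Fosl2 in m6A over input (-0.0218 to 0.32). The causes were not tested. Low counts limit Batf and Batf3, and 1 PBS library limits input at 24 hours.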
